A study of Mus musculus with 4 samples.

Results

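Interferon-linked serpins and granzyme inhibitors were followed in MC38 cells, a mouse colon carcinoma cell line, as 9 genes named by symbol: Serpina3f, Serpina3g, Serpina3h, Serpina3i, Serpina3n, Serpinb1a, Serpinb6a, Serpinb6b and Serpinb9. All 9 were found by NCBI gene ID among the 27179 genes of the count table, which holds 65 genes with a Serpin symbol. The cells were wild type and gave 1 poly-A RNA library for each of 4 conditions: untreated control under normoxic conditions (20% oxygen), untreated control under hypoxic conditions (1.5% oxygen), IFN-γ under normoxic conditions and IFN-γ under hypoxic conditions. The sample labels give no dose or duration for IFN-γ, and the methods of the study give 5 ng/mL and 24 h as its usual treatment. The design asks how IFN-γ differs from control and how hypoxia differs from normoxia, and it has no replicate culture in any condition.

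Serpins are protease inhibitors that offer the protease a bait loop and trap it in a covalent complex once the loop is cut. Clade B serpins such as Serpinb9 stay inside the cell, and Serpinb9 is the inhibitor of granzyme B, the protease that cytotoxic T cells and NK cells deliver through perforin into a target cell. The Serpina3 genes of the mouse are an expanded family of close paralogs that corresponds to a single human gene, antichymotrypsin, and members of both families are known as genes that respond to interferon.

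The counts on genes summed to between 34302971 and 34537939 per library, so 3 counts, taken here as the limit of detection, correspond to 0.0866 to 0.0875 CPM, a gene's counts scaled to a common library size. All 8 IFN-γ response genes of a control list were raised by IFN-γ and all 8 hypoxia response genes of another list were raised by hypoxia in edgeR's quasi-likelihood test at an adjusted p under 0.05. The IFN-γ list had a median log2 fold change of 2.26 with IFN-γ, beside -0.01 over all 14103 genes tested, and the hypoxia list had a median log2 fold change of 1.29 with hypoxia, beside 0.01 over all genes. The 8 epithelial markers summed to between 85 and 113 counts per library, most of them from Krt8 with 48 to 90, and 4 of the 8 passed the filter on low counts. Cdh1 and Cdx2 were at 0 in every library and Epcam had at most 2 counts. The 8 mesenchymal markers summed to between 92278 and 103131 counts, most of them from Vim with 74838 to 81307. All 8 passed the filter on low counts, and their levels were uneven, with 29 to 66 counts for Col1a1. The 8 markers of T and NK cells summed to between 3 and 18 counts per library and those of myeloid cells to between 289 and 362.

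The promoters of Serpina3f and Serpinb9 are shown because IFN-γ raised both genes, those of Serpina3g and Serpina3i as close paralogs of Serpina3f that hold the same kind of match at few or no counts, and that of Serpinb6a because it is the most abundant member. Each line gives the 150 bases before an annotated transcription start, 5′ to 3′ on the strand of the gene, from RefSeq on GRCm38.p6 (mm10, the build that the submitters' processing notes name). Capitals mark matches to TTCNNNGAA, the palindromic core of the element bound by STAT dimers, and to the repeat of GAAA with 2 bases of any kind between its copies, the core of the element bound by interferon regulatory factors, both searched on both strands. Where matches overlap, 1 run of capitals covers both. For Serpinb9 and Serpina3i this start lies inside the gene's annotated span given below, so another annotated start of these genes lies farther upstream.
Serpina3f (chr12:104214394-104214543, + strand): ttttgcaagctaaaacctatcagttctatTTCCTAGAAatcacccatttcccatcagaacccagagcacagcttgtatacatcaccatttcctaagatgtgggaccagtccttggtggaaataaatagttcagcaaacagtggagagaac
Serpina3g (chr12:104235997-104236146, + strand): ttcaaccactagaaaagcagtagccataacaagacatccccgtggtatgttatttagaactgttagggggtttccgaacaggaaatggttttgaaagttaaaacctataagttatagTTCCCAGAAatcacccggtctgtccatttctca
Serpina3i (chr12:104262972-104263121, + strand): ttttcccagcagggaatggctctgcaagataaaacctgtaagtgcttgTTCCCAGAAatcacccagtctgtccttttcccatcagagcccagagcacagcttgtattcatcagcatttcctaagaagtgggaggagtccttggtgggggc
Serpinb9 (chr13:33004391-33004540, + strand): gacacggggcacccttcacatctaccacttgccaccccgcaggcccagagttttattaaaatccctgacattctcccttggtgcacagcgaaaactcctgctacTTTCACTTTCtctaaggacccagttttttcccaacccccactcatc
Serpinb6a (chr13:34002795-34002944, - strand): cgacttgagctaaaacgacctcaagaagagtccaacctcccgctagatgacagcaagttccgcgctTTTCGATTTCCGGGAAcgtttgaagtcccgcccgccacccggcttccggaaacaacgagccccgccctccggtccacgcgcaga

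Promoter entries were found for 7 of the 9 members, Serpina3h and Serpinb1a having none, and each entry was searched from 250 bases before to 50 bases after the start. TTCNNNGAA was found in Serpina3f from base -121, in Serpina3g from base -33, in Serpina3i from base -102 and in Serpinb6a from base -77 and again from base 21, counting the first transcribed base as 1. Among all 32851 promoter windows of this length, 8.3% hold it. The GAAA repeat lies on the opposite strand in Serpinb9, from base -46 to base -37, and in Serpinb6a, from base -84 to base -75, where it overlaps TTCNNNGAA. In 3.44% of all windows this motif is found. Neither motif is in the windows of Serpina3n and Serpinb6b, a second annotated start of Serpina3f holds the same TTCNNNGAA element from base -210, and a second start of Serpinb6a holds none. TTCNNNGAA stood in front of Serpina3f, which was counted in IFN-γ libraries alone, and of Serpina3i, which had no counts. It also stood in front of Serpina3g, at 7 counts or fewer, and of Serpinb6a, whose level hardly differed between libraries. Serpinb9, which IFN-γ raised, held the GAAA repeat alone. Whether either motif bears on any of these levels was not tested.

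Serpinb9 was the member with a clear rise at a well-measured level, Serpina3f was counted after IFN-γ alone, and Serpinb6a made up most of the counts of the 9 genes without a change that passed the test. Of the 9 members, 4 passed edgeR's filter on low counts and were tested. IFN-γ raised 2 of these, Serpinb9 and Serpina3f, beside 4.21% of all genes tested, and lowered 0, beside 0.759% of all genes. Serpina3f passed the filter only through the IFN-γ libraries, in which it was counted, so that it could hardly have been tested without differing. In a fit that required a minimum of 10 counts in each library, 3 members were tested and 1, Serpinb9, was raised. Hypoxia changed 0 of the 4, beside 12.5% of all genes, and 0 of the 4 had an unadjusted p under 0.05 by edgeR or by DESeq2's Wald test. The test is edgeR's quasi-likelihood test fitted additively to IFN-γ and oxygen, adjusted by Benjamini-Hochberg over all 14103 genes. With 1 library per condition its error is the departure from additivity, pooled over genes with 1 residual degree of freedom each, and this mixes variation between cultures with any interaction of IFN-γ and oxygen.

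**Figure D1:**
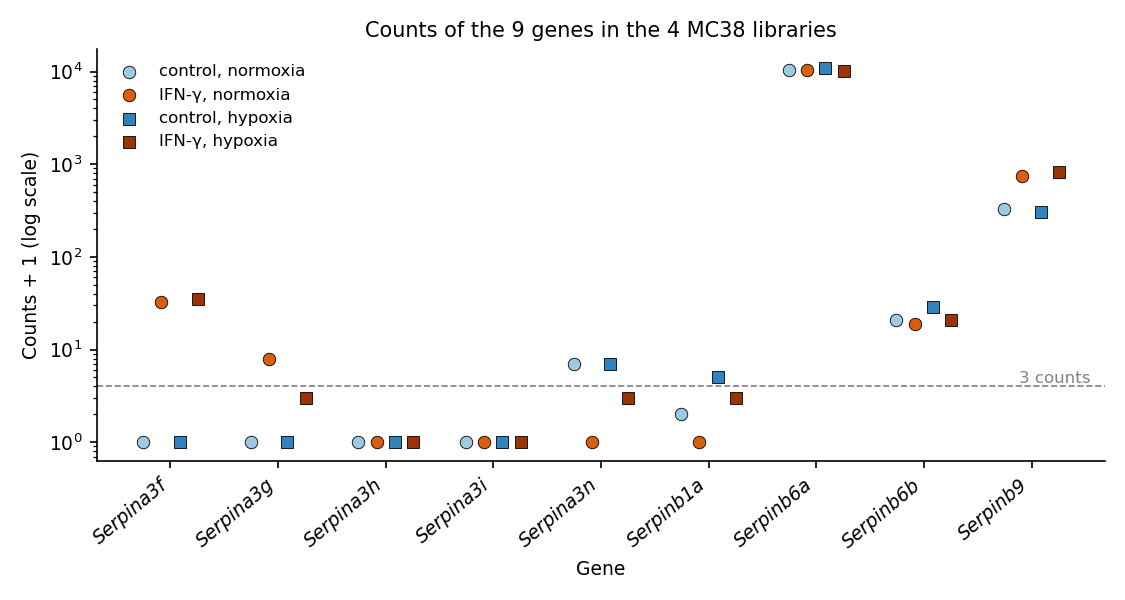
Counts plus 1 of each of the 9 genes on a log axis, with 1 point per library (circles normoxia, squares hypoxia, blue control, orange and brown IFN-γ) and a dashed line at 3 counts. Serpinb6a lies between 10182 and 10947 counts in all 4 libraries, Serpinb9 is higher in both IFN-γ libraries, and Serpina3f is at 0 in both control libraries.

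Serpinb9 (NCBI gene 20723, chr13:32997061-33017955, + strand) had 324 counts in the normoxic control, 301 in the hypoxic control, 739 in the normoxic IFN-γ library and 832 in the hypoxic IFN-γ library. Both IFN-γ libraries stood above both control libraries. In such bulk samples a change in the share of expressing cells and a change in RNA per cell cannot be told apart. Over both oxygen levels its log2 fold change with IFN-γ was 1.34 (standard error, SE, 0.104, adjusted p = 2.53e-12, edgeR), and over 7 alternative fits it had an adjusted p between 2.95e-11 and 0.0026 by edgeR or DESeq2. It ranked 184 from the highest by log2 fold change among the 594 genes raised by IFN-γ, of which 231 had a log2 fold change of at least 1.

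Taken pair by pair, Serpinb9 was 2.31-fold higher with IFN-γ in normoxia, which is 1.20 on the log2 scale (95% interval 1.01 to 1.40), and 2.79-fold higher in hypoxia, which is 1.48 (95% interval 1.29 to 1.68). These intervals are exact (Clopper-Pearson) for the counts of 2 libraries and cover counting error only. Low counts in these libraries were even more often than odd, and if both reads of a pair were counted separately, the intervals are too narrow and the bounds against 3 counts below are too high. Hypoxia without IFN-γ gave a log2 fold change of -0.10 (95% interval -0.34 to 0.13) and hypoxia with IFN-γ one of 0.17 (95% interval 0.03 to 0.32). The 2 hypoxia changes had opposite signs, and the first interval includes 0. In the additive fit the log2 fold change of Serpinb9 with hypoxia was 0.06 (SE 0.103, adjusted p = 0.786, edgeR).

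**Figure D2:**
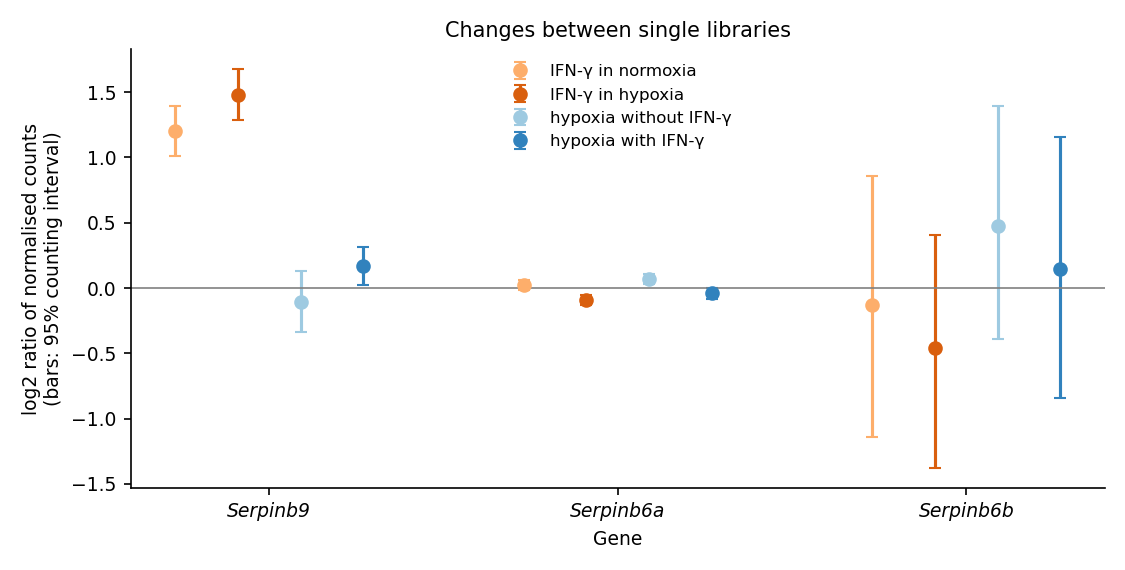
log2 ratios between single libraries for Serpinb9, Serpinb6a and Serpinb6b on the vertical axis, with IFN-γ changes in orange, hypoxia changes in blue and 95% counting intervals as bars. Both IFN-γ changes of Serpinb9 lie above 1 on the log2 scale, those of Serpinb6a lie within 0.1 of 0, and those of Serpinb6b have intervals that span 0.

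The IFN-γ change of Serpinb9 was larger by 0.28 on the log2 scale under hypoxic than under normoxic conditions (95% counting interval 0.01 to 0.54). Without replicates this difference was not tested. Over the 10443 genes that reached 100 counts in each of the 4 libraries, the central 95% of the same difference ran from -0.36 to 0.40 with a median of -0.02, so that Serpinb9 lay inside it, and 6.87% of these genes had a difference at least as high. For 34.5% of the genes the difference was outside its own counting interval, so the intervals as computed do not cover the whole spread. This share was not computed with halved counts. It mixes variation between cultures with any interaction of IFN-γ and oxygen. Serpinb6a had a difference of -0.11 (95% counting interval -0.17 to -0.06), and 25.7% of the genes had one at least as low.

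**Figure D3:**
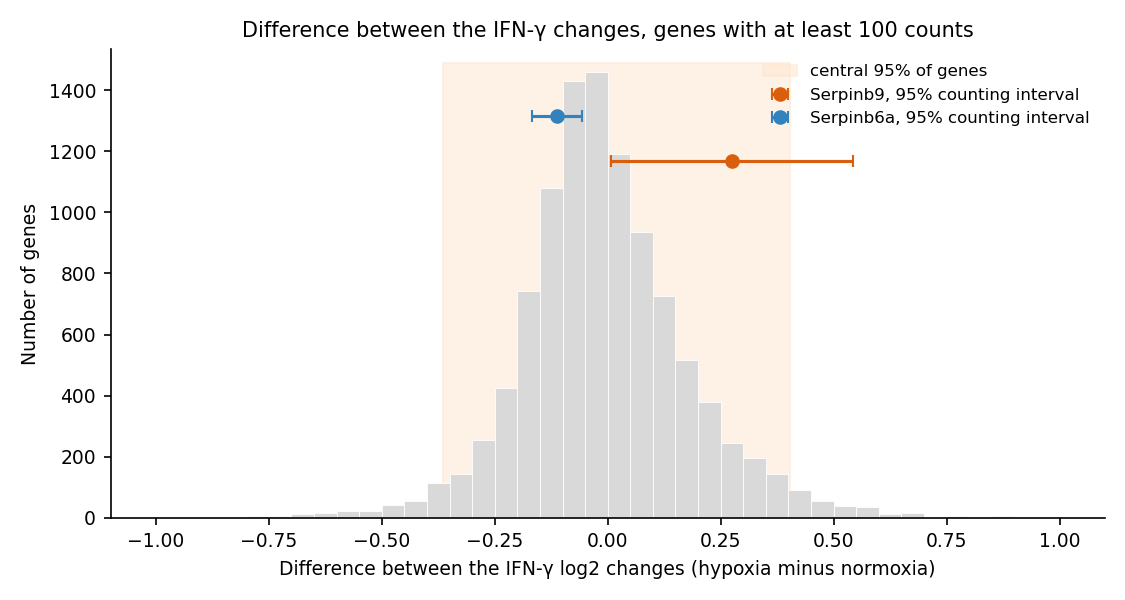
Number of genes (vertical axis) by the difference between the IFN-γ log2 fold changes, hypoxia minus normoxia (horizontal axis), for 10443 genes, 6 of which lie beyond the axis, with the central 95% shaded. Serpinb9 (orange, 0.28) and Serpinb6a (blue, -0.11), drawn with 95% counting intervals at an arbitrary height, both lie within the shaded range.

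Serpinb9 is counted apart from its relatives with little overlap. Of the 31-base words in its transcripts, 4.94% occur in another annotated gene, most of them in Serpinb9b (3.79%), and 0 of its 100-base words, the length of a read, do so. Serpinb9b, which starts 9.46 kb beyond the end of Serpinb9, had 33 counts in the normoxic and 45 in the hypoxic control, and 18 and 36 counts in the corresponding libraries with IFN-γ. Its log2 fold change of -0.54 with IFN-γ (SE 0.385) had an adjusted p of 0.646 by edgeR, so no rise like that of Serpinb9 was measured there. The 8 Serpinb9 genes of the table together summed to 363 and 348 counts without IFN-γ and to 773 and 872 with it, in each case the normoxic library first, a log2 fold change of 1.22 (SE 0.1, adjusted p = 1.57e-11, edgeR).

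Irf7, Tmco4 and Mov10 were the genes whose pattern over the 4 libraries was most like that of Serpinb9, by Euclidean distance between the 3 log2 ratios to the normoxic control, among 11489 genes averaging at least 50 counts. The distances were 0.0407, 0.11 and 0.161. Irf7, a transcription factor of the interferon response, had 339, 309, 788 and 878 counts in the normoxic control, the hypoxic control, the normoxic IFN-γ and the hypoxic IFN-γ library. For Serpinb6a the nearest genes were Plpp5, Ctnnb1 and Ndufaf7, at distances of 0.00386, 0.00624 and 0.0129. Near a flat pattern such distances are small for many genes.

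The Serpina3 members lie together on chromosome 12 and were hardly expressed. Serpina3f (NCBI gene 238393, chr12:104214544-104221129, + strand) had 0 counts in both control libraries, 32 in the normoxic and 34 in the hypoxic IFN-γ library. With the control set at 3 counts and the IFN-γ counts taken as exact, it was at least 10.8-fold higher under normoxic conditions. Under hypoxic conditions it was at least 11.4-fold higher on the same terms. The lower 95% counting limits of these ratios were 8.27-fold and 8.81-fold. With halved counts these limits were lower and still above no change. The adjusted p of Serpina3f for IFN-γ was 6.43e-06 (edgeR) and ran from 8.21e-05 to 0.0212 over 6 alternative fits by edgeR or DESeq2. Serpina3f entered each of these fits only through its counts in the IFN-γ libraries. Between the IFN-γ libraries its level hardly differed, with a log2 fold change of 0.09 with hypoxia (95% interval -0.65 to 0.83).

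Serpina3g (NCBI gene 20715, chr12:104236147-104241939, + strand), also known as Spi2A, an intracellular inhibitor of cysteine cathepsins, had 0 counts in both control libraries, 7 in the normoxic and 2 in the hypoxic IFN-γ library. Only the normoxic IFN-γ library lay above 3 counts, and it was at least 2.36-fold higher than the normoxic control when the latter is set at 3 counts and the 7 counts are taken as exact. The lower 95% counting limit of this ratio was 1.46-fold, and with halved counts it was -0.58 on the log2 scale, which includes no change. Serpina3g did not pass the filter on low counts, and fitted without the filter it had an adjusted p of 0.615 by edgeR. Serpina3n (NCBI gene 20716, chr12:104406646-104414334, + strand), a secreted inhibitor of granzyme B and other serine proteases, was counted in the other direction, with 6 counts in each control library, 0 in the normoxic and 2 in the hypoxic IFN-γ library. In the normoxic pair it was at least 1.98-fold lower with IFN-γ when the latter is set at 3 counts, and the upper 95% limit of the log2 ratio was -0.22, or 1.29 with halved counts, which includes no change. In the hypoxic pair the interval, -4.91 to 0.91, includes 0. Without the filter its adjusted p for IFN-γ was 0.784 by edgeR, so no change passed the test.

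Serpina3i (NCBI gene 628900, chr12:104263045-104269509, + strand) and Serpina3h (NCBI gene 546546, chr12:104247896-104254405, + strand), which RefSeq lists as a transcribed pseudogene, had 0 counts in all 4 libraries. A count of 0 is read here as at most 3 counts, or 0.0866 to 0.0875 CPM, the limit of detection set above. Of the 6 other Serpina3 genes of the table, 5 had 0 counts in all libraries and Serpina3m had 2 counts in the normoxic control.

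Because the Serpina3 paralogs share sequence, their counts were also summed. Serpina3f shares 27.3% of its 31-base words with other genes, most with Serpina3g (15.3%), and 3.4% of its 100-base words, and for Serpina3g these shares were 28.4% and 3.49%. How reads that match several genes were counted is not given in the sources used here, so counts of these paralogs can be split among them. The 5 members summed to 6 counts in each control library, 39 in the normoxic and 38 in the hypoxic IFN-γ library. The log2 fold change of the sum with IFN-γ was 2.67 (SE 0.538, adjusted p = 0.000835, edgeR), and the single pairs gave 2.62 (95% interval 1.46 to 4.25) and 2.58 (95% interval 1.42 to 4.21). DESeq2's Wald test gave an adjusted p of 0.0926 for this sum, within a range of 0.00152 to 0.0926 over 6 alternatives. Serpina3n supplied all control counts of the sum and Serpina3f most of the IFN-γ counts. Like Serpina3f, the sum passed the filter on low counts only through the IFN-γ libraries, so its call adds little to that of Serpina3f. With hypoxia the log2 fold change of the sum was -0.03 (SE 0.502, adjusted p = 0.982, edgeR).

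Serpinb6a (NCBI gene 20719, chr13:33917918-34002794, - strand), an intracellular serpin that inhibits cathepsin G and other serine proteases, was the most abundant member. It had 10437 counts in the normoxic control, 10947 in the hypoxic control, 10478 in the normoxic IFN-γ library and 10182 in the hypoxic IFN-γ library, so that control and IFN-γ libraries overlapped. The log2 fold change with IFN-γ was -0.04 (SE 0.0522, adjusted p = 0.893) and that with hypoxia 0.01 (SE 0.0522, adjusted p = 0.901), both by edgeR. Its single-pair changes were small and of mixed sign. With IFN-γ the log2 fold change was 0.02 under normoxic conditions (95% interval -0.02 to 0.06) and -0.09 under hypoxic conditions (95% interval -0.13 to -0.05), and with hypoxia it was 0.07 without IFN-γ (95% interval 0.03 to 0.11) and -0.04 with it (95% interval -0.08 to -0.00156).

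On the opposite strand, the annotated locus of Serpinb6a overlaps Nqo2, Ripk1 and 1110046J04Rik, and 29% of its 31-base words occur in other genes when both strands are searched, with 13.1% of all its words found in Nqo2. Of its 100-base words, the length of a read, 19.9% occur in other genes and 11% in Nqo2, the largest such shares among the 9 members. The libraries kept the strand, and whether the counting used it is not given in the sources used here. Nqo2 had between 1714 and 1802 counts, Ripk1 between 1436 and 1694 and 1110046J04Rik between 23 and 33, all well under the counts of Serpinb6a.

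Serpinb6b (NCBI gene 20708, chr13:32956811-32979067, + strand), a mouse serpin known to inhibit granzyme A, was counted at a far lower level than its relative. It had 20 counts in the normoxic control, 28 in the hypoxic control, 18 in the normoxic IFN-γ library and 20 in the hypoxic IFN-γ library, and the libraries overlapped. The log2 fold change with IFN-γ was -0.31 (SE 0.477, adjusted p = 0.896, edgeR) and that with hypoxia 0.33 (SE 0.477, adjusted p = 0.728, edgeR). In single pairs the IFN-γ intervals, -1.14 to 0.86 under normoxic and -1.38 to 0.41 under hypoxic conditions, leave room for changes in either direction. The sum of Serpinb6a and Serpinb6b, 10457 and 10975 counts in the control and 10496 and 10202 in the IFN-γ libraries, was Serpinb6a almost entirely and had a log2 fold change of -0.04 with IFN-γ (SE 0.0521, adjusted p = 0.89) and 0.02 with hypoxia (SE 0.0521, adjusted p = 0.895), both by edgeR.

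Serpinb1a (NCBI gene 66222, chr13:32842092-32853206, - strand), an inhibitor of neutrophil elastase and related proteases, had 1 count in the normoxic control, 4 in the hypoxic control, 0 in the normoxic IFN-γ library and 2 in the hypoxic IFN-γ library. Only the hypoxic control lay above 3 counts, and the gene was not tested. Fitted without the filter, its adjusted p for IFN-γ was 0.916 by edgeR.

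Compared per length of the longest annotated transcript, the levels fell into a steep order. In CPM per kb of transcript, Serpinb6a stood at 137.5, 144.4, 139.5 and 135.6 in the normoxic control, the hypoxic control, the normoxic IFN-γ and the hypoxic IFN-γ library. On the same scale the level of Serpinb9 was 2.69, 2.51, 6.21 and 6.99, so that the level of Serpinb6a was 51.0 and 57.6 times that of Serpinb9 in the control libraries, but 22.5 and 19.4 times that level with IFN-γ. Serpinb9 in turn supplied 3% and 2.67% of the counts of the 9 members without IFN-γ and 6.55% and 7.51% with it. In the normoxic IFN-γ library Serpina3f followed at 0.415 CPM per kb (95% Poisson interval 0.284 to 0.586) and Serpinb6b at 0.239 (95% Poisson interval 0.142 to 0.378), and these intervals overlap, so their order is not settled. In the control libraries Serpinb6b came next after Serpinb9, and the remaining members were at or near the limit of detection in every library.

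The members on chromosome 13 sit in a stretch of 1161 kb with 16 genes of the Serpinb1, Serpinb6 and Serpinb9 groups, of which 2, Serpinb6a and Serpinb9, had a mean of at least 50 counts. Serpinb6b ends 18 kb before Serpinb9 begins. On chromosome 12 the 11 Serpina3 genes of the table span 301.6 kb, none had a mean of 50 counts, and 7 had 0 counts in every library. The genes beside Serpinb9 and Serpina3f therefore included members without a measured change and genes without counts. A list of 11 other Serpinb1, Serpinb6 and Serpinb9 genes left out Serpinb9h, which had no counts. Of this list 3 genes were tested, and by edgeR IFN-γ raised 0 and lowered 0, beside 4.21% and 0.759% of all genes tested.

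**Figure D4:**
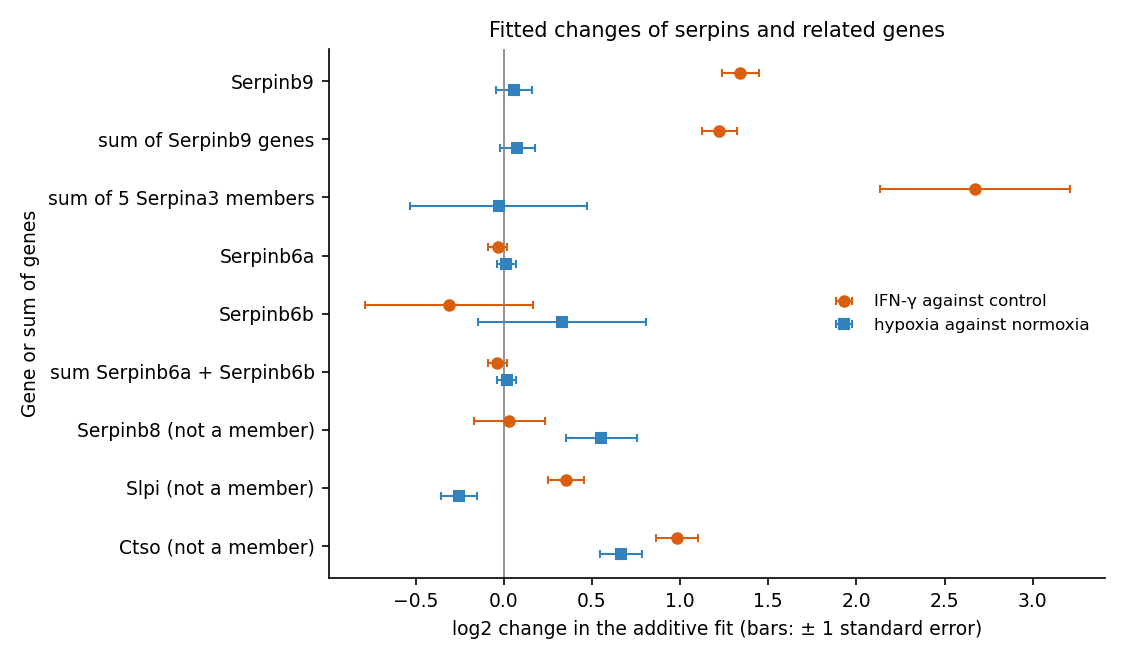
Fitted log2 fold change (horizontal axis) with IFN-γ (orange circles) and with hypoxia (blue squares) for members, their sums and 3 related genes that are no members, with bars of 1 standard error from edgeR's additive fit. Serpinb9 and the Serpina3 sum lie to the right for IFN-γ and near 0 for hypoxia, and Serpinb6a lies near 0 for both. The Serpina3 sum passed the filter on low counts only through the IFN-γ libraries. Serpina3f is left out because its fitted change against 0 counts depends on the fit.

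Granzymes and leukocyte serine proteases, targets of several of these serpins, were hardly counted, while cysteine cathepsins were abundant. Of 12 genes for granzymes, perforin and serglycin (Srgn), 8 had 0 counts in all 4 libraries. This list summed to between 11 and 14 counts per library, most of them from Gzmm with 7 to 13. Of 7 leukocyte serine proteases found in the table, 4 had 0 counts in all libraries and Prtn3 had most counts, between 55 and 75. IFN-γ and hypoxia changed 0 of the 2 genes tested from these lists by edgeR. Over all genes tested, IFN-γ raised 4.21% and lowered 0.759%, and hypoxia changed 12.5%. Cysteine cathepsins, targets of Serpina3g, were listed together with Lgmn, legumain, which is not a cathepsin. This list summed to between 58302 and 62081 counts per library, mostly Ctsl, Ctsz and Ctsb.

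Of 9 genes tested from the list of cysteine cathepsins and legumain, IFN-γ raised 2 and lowered 0, beside 4.21% and 0.759% of all genes tested. Their median log2 fold change was 0.07, beside -0.01 over all genes. Ctso, cathepsin O, had 182 and 308 counts in the normoxic and hypoxic control and 380 and 572 in the IFN-γ libraries, a log2 fold change of 0.98 with IFN-γ (SE 0.121, adjusted p = 1.42e-07, edgeR), past the threshold in 6 of 7 alternatives and at an adjusted p of 0.372 when oxygen was left out of the model. With hypoxia its log2 fold change was 0.66 (SE 0.12, adjusted p = 0.000175, edgeR), at an adjusted p of 0.518 in the same alternative. The other raised cathepsin, Ctss, cathepsin S, which trims the invariant chain of MHC class II, passed the filter only through the IFN-γ libraries, as Serpina3f did, so its call adds little. It was counted too rarely for the rule on naming and is named after its values were seen. It had 6 and 0 counts in the control and 26 and 24 in the IFN-γ libraries (adjusted p = 0.0065, edgeR, and 0.0173 to 0.356 over 6 alternatives). Of 6 other protease inhibitors tested, IFN-γ raised 1, beside 4.21% of all genes tested. This was Slpi, the secretory leukocyte protease inhibitor, with 549 and 418 counts in the control and 635 and 582 in the IFN-γ libraries. Its log2 fold change was 0.35 (SE 0.101, adjusted p = 0.0314, edgeR). The change was past the threshold in 2 of 7 alternatives, whose adjusted p ran from 0.0437 to 0.956 by edgeR or DESeq2.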

How the data were processed

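Poly-A RNA of MC38 cells was made into strand-specific libraries and sequenced as paired reads of 100 bases on a DNBSEQ instrument, with 1 library for each of 4 conditions. The authors aligned reads with HISAT2 and deposited raw read counts per gene for all 4 libraries in 1 table, with no normalization. The submitters' processing notes name featureCounts and mm10, and the annotation and the settings for strand, pairs and multiple matches are not given in the sources used here. Among counts of 1 to 10, between 64% and 66.3% were even, beside 50.8% to 52.5% among counts of 101 to 1000, a pattern that counting both reads of a pair separately would give. Counts halved and rounded up were therefore run as an alternative chosen after seeing the data.

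Gene symbols came from RefSeq (GRCm38.p6) by NCBI gene ID, for 25275 of 27179 IDs. The main test was edgeR 4.0.16 (R 4.3.3) by quasi-likelihood on all 4 libraries, with IFN-γ and oxygen as terms, TMM normalization, the filter at a minimum count of 10 on the 4 groups, and Benjamini-Hochberg adjustment at 0.05. The standard error is the log2 change divided by the root of the F statistic. TMM factors ran from 0.993 to 1.01. Sums replaced their genes in the whole table. Single pairs are log2 ratios of TMM-normalized counts with 0.5 counts added, with 95% intervals for counting error only, and no p-value measures variation between cultures. Alternatives were DESeq2 1.42.0 (Wald test, and its size factors in edgeR), total counts, other filters, a model without the other stimulus, a minimum log2 change of 1, single pairs, whole subfamilies and 5 counts added. The fit was tested on simulated data. Named genes were the members, their sums, and from each other list at most 5 genes that passed the test at a mean of at least 50 counts, by size of change, or those with most counts, with other serpins that passed the same limits and the 3 genes nearest in pattern. Some genes that this rule names are not reported here. The control lists, of which few genes are named, are given by their counts. Members and lists were chosen with earlier results of these data known. Transcripts of GENCODE vM21 gave lengths and shared words.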

Additional observations from a re-analysis of the deposited data

Results flagged for a closer look

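The log2 ratios of Serpinb6a for IFN-γ and for hypoxia, and those of Serpinb9 for hypoxia, had opposite signs in the pairs of libraries that make up each contrast, and none of these differences was tested, since each condition has 1 library. The 95% counting intervals of Serpinb6a with IFN-γ under normoxic conditions (-0.02 to 0.06) and of Serpinb9 with hypoxia in the absence of IFN-γ (-0.34 to 0.13) include 0, so opposite changes are not shown there. For Serpinb6a with hypoxia in the presence of IFN-γ the interval ran from -0.08 to -0.00156. With counts halved it ran from -0.097 to 0.015 and included 0, so opposite changes are then not shown there either. The log2 change of Serpinb6a with IFN-γ was 0.02 under normoxic and -0.09 under hypoxic conditions, and its change with hypoxia was 0.07 without and -0.04 with IFN-γ, both a difference of -0.11. The log2 change of Serpinb9 with hypoxia was -0.10 without and 0.17 with IFN-γ, a difference of 0.28. Over the 10443 genes that reached 100 counts in each library, the central 95% of such differences ran from -0.36 to 0.40. With counts halved, the 95% counting interval of the difference ran from -0.11 to 0.65 for Serpinb9 and from -0.19 to -0.03 for Serpinb6a.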

How the results depend on the processing

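Serpinb9 was raised by IFN-γ in all 7 alternative fits, with log2 changes of 1.32 to 1.35. Serpina3f was raised in all 6 that included it. It entered these fits only through its counts in the IFN-γ libraries, so their agreement adds little. Asking for at least 10 counts in every library left 1 member raised, since Serpina3f is then not tested. The sum of the 5 Serpina3 members had a log2 change of 2.70 in DESeq2's Wald test, no longer past the threshold (adjusted p = 0.0926), and the cause was not tested. In single pairs the sum of Serpinb6a and Serpinb6b gave log2 changes of 0.0203 and -0.0921 with IFN-γ and of 0.0717 and -0.0407 with hypoxia, the last against the direction of the fit, whose change of 0.02 had not passed the test. No member was called for hypoxia in any alternative. DESeq2's Wald test gave no adjusted p with hypoxia for Serpina3f and Serpinb6b, so neither could be called there. Serpina3f was also left out of the fit that asked for 10 counts in every library. The number of genes lowered by IFN-γ, 107, was 16 with DESeq2 and 3 without oxygen in the model, and the numbers raised were 594, 353 and 232. With hypoxia 981 genes were raised and 781 lowered, against 356 and 218 with DESeq2 and 149 and 26 without IFN-γ in the model, so the share of all genes set beside the members is lower in these fits. Halving the counts widened counting intervals, and those of Serpinb9 with hypoxia in the presence of IFN-γ then ran from -0.04 to 0.38 and included 0. Depth limits Serpina3g, Serpina3n and Serpinb1a, at 7 counts or fewer per library. No paired analysis was possible because each condition has 1 library.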
